A study of Mus musculus with 3 samples.

Results

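In a small number of insulin-rich cells of the mouse pancreatic islet, digestive enzyme RNA took a far larger share of the counted RNA than in their neighbours. The RNA of these cells is described here. A barcode was kept as a cell with at least 500 detected genes, at least 1000 unique molecular identifiers (UMIs, counted RNA molecules) and at most 20% of UMIs from mitochondrially encoded genes. It entered the insulin gate when Ins1 and Ins2 gave at least 25% of its UMIs and Gcg, Sst and Ppy less than 2% each. It was a member when 6 exocrine genes (Try4, Try5, Prss2, Cela2a, Pnlip and Ctrb1) together gave at least 0.2% of its UMIs. These values chose the members, so the levels of the 6 genes, of insulin and of the other hormones describe the members and are not findings about them. The rule found 206 members among 13850 cells in the insulin gate, out of 28374 cells kept in all. There were 52 members among 3921 gated cells in the library labelled ASF-KO, 7 among 5138 in the library labelled SC35-KO and 147 among 4791 in the wild type (WT) library. The other gated cells of the same library are called the rest.

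The series holds 1 library of hand-picked islet cells from each of 3 genotypes, ASF-KO, SC35-KO and WT, all from mice 9 months old. The protein once called ASF is now SRSF1, and SC35 is SRSF2. Both are SR proteins that bind pre-mRNA and guide the choice of splice sites, and the series title asks about their role in the development of diabetes. The labels give neither the alleles, nor the cells in which the genes were deleted, nor the number of mice behind a library. The pancreas was perfused with collagenase, islets were picked and dissociated with trypsin, and 3' ends were counted with a Chromium v3 kit. With 1 library a group no difference between genotypes could be tested, and every 95% interval below covers counting error only.

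Acinar cells, which make up most of the exocrine pancreas, produce digestive enzymes as inactive precursors called zymogens, store them in granules and secrete them into ducts. Beta cells make, store and secrete insulin, and both cell types descend from the same embryonic pancreatic progenitors. Acinar enzyme genes are among the most abundantly transcribed genes of the pancreas, and in droplet methods RNA released from broken cells can be counted with any barcode.

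The libraries held between 148320213 and 154099078 UMIs. Srsf1, the gene behind the label ASF-KO, gave 27.6 counts per 1000000 UMIs (CPM) in members and 37.1 CPM in the rest of the library so labelled, against 34.1 CPM in members and 38.8 CPM in the rest of WT. Srsf2, the gene behind SC35-KO, gave 1 UMI in the members and 26.9 CPM in the rest of that library, against 24.8 and 28.0 CPM in WT. Neither gene was clearly lower under its own label, and 3' counts do not check a deletion outside the counted 3' end, so ASF-KO and SC35-KO stand below for the libraries so labelled. Between 32 and 45 barcodes, counted before the cell filter, were shared by each pair of libraries, none of them a member. Scrublet marked 1 member in ASF-KO, none in SC35-KO and 2 in WT as doublets, and these were kept.

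The rule genes encode enzyme precursors. Try4, Try5 and Prss2 encode trypsinogens, Cela2a an elastase, Pnlip the pancreatic lipase that splits dietary fat, and Ctrb1 chymotrypsinogen B. On GRCm38 (GENCODE M21) Try4 lies on chromosome 6 from 41302269 to 41305532, Try5 from 41311233 to 41316841 and Prss2 from 41521787 to 41525079 of the same chromosome. Cela2a lies on chromosome 4 from 141814962 to 141826160, Pnlip on chromosome 19 from 58652498 to 58681788 and Ctrb1 on chromosome 8 from 111686519 to 111691010. The Try4 and Try5 transcripts were 97.1% identical, and Prss2 was 89.8% identical to Try4 and 88.5% to Try5, so the split of reads among these paralogs is uncertain while their sum is less so. Try4 and Ctrb1 are the genes whose shares differed most in the WT results below, and the 250 bases before each start site are therefore shown (RefSeq, GRCm38.p6), 5′ to 3′ on the gene's strand. Try4 is read at chr6:41302022-41302271 on the plus strand and Ctrb1 at chr8:111691011-111691260 on the minus strand. Capitals mark matches, on either strand, to 3 motifs. The first, CACCTG, is an E-box of the kind bound by the acinar factor Ptf1a and its dimer partners. The second is the core of the element bound by Rbpjl, which joins Ptf1a in acinar cells, and it was searched as TTTCCC. The last is the core promoter element at which transcription factor IID binds, and it was searched as TATAAA.
Try4: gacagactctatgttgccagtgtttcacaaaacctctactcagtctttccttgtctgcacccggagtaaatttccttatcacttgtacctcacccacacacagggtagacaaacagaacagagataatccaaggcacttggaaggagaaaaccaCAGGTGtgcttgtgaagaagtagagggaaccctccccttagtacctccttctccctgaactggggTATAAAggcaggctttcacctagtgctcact
Ctrb1: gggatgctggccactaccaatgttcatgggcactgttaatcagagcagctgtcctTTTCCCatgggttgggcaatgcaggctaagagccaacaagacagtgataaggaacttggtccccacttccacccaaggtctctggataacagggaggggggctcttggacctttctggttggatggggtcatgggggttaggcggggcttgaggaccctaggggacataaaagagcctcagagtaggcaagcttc
The table held windows for 5 of the 6 rule genes, with none for Try5. The letters of the E-box, of the Rbpjl core and of the core promoter element each lay in 3 of these 5 windows, against 17.2%, 21.9% and 12.4% of 32851 windows of the same length over all genes. A match describes the letters only.

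Members were rare in every library and their share differed between them. They made up 1.33% of the gated cells in ASF-KO (interval 0.992 to 1.74%), 0.136% in SC35-KO (0.0548 to 0.281%) and 3.07% in WT (2.60 to 3.6%). The lowest shares of rule UMIs inside the threshold were 0.202% in ASF-KO, 0.380% in SC35-KO and 0.2003% in WT, and the highest outside it were 0.1997%, 0.175% and 0.197%. WT members crowded the threshold, with 60 of 147 between 0.2% and 0.3% and 176 further cells of the rest between 0.1% and 0.2%. In ASF-KO 20 members lay between 0.2% and 0.3% and 28 cells of the rest between 0.1% and 0.2%. In SC35-KO no member lay below 0.3% and 7 cells of the rest lay between 0.1% and 0.2%. The median share was 0.360% in ASF-KO members, 0.844% in SC35-KO members and 0.329% in WT members, against 0.0159%, 0% and 0.0157% in the rest. As counts the medians were 7.5 rule UMIs in ASF-KO members, 120 in SC35-KO members and 50 in WT members, against 4, 0 and 3 in the rest. Membership in ASF-KO thus often rested on few molecules in cells with few UMIs.

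**Figure D1:**
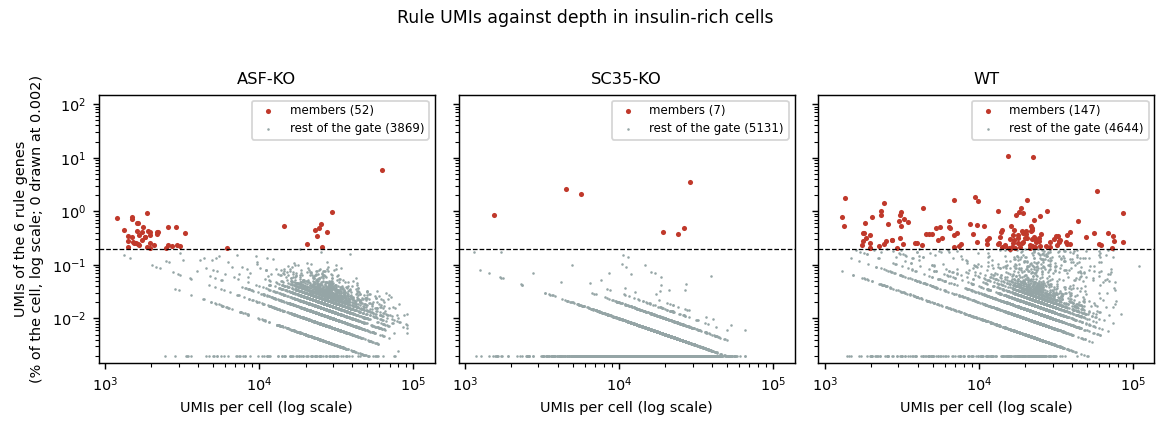
Share of UMIs from the 6 rule genes (vertical axis, percent, log scale) against UMIs per cell (horizontal axis, log scale) for every gated cell, with 1 panel each for ASF-KO, SC35-KO and WT. Members lie on or above the line at 0.2%, and most of the 52 ASF-KO members sit at the shallow left edge while the 147 WT members spread over the depth range.

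In ASF-KO the members were mostly shallow barcodes. Their median was 1947 UMIs and 620.5 genes, against 26829 UMIs and 3423 genes in the rest, and 41 of 52 (78.8%) had fewer than 5000 UMIs, against 0.956% of the rest. SC35-KO members had a median of 19170 UMIs, against 17394 in the rest. WT members had a median of 15974 UMIs and 2842 genes, against 22609 UMIs and 3664 genes in the rest, and 39 of 147 (26.5%) had fewer than 5000 UMIs, against 4.59% of the rest. Mitochondrial UMIs had medians of 3.66%, 3.13% and 2.67% in the members of ASF-KO, SC35-KO and WT, against 2.76%, 2.49% and 3.11% in the rest. Insulin took a median of 38.7% of UMIs in ASF-KO members, 56.0% in SC35-KO members and 51.6% in WT members, against 63.7%, 63.0% and 53.1% in the rest.

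The share of gated cells that were members was lower at greater depth in ASF-KO. It was 93.5% (29 of 31) between 1000 and 2000 UMIs, 25.5% (12 of 47) up to 5000 UMIs and 1.11% (1 of 90) up to 10000 UMIs. At greater depth it stayed between 0.160% and 0.299%. In WT it was 34.2% (13 of 38), 12.1% (26 of 214) and 8.12% (19 of 234) in the same bins, and 3.01%, 1.43% and 4.33% in the deeper ones. Among the barcodes that failed the cell filter but met the hormone limits of the gate, the 6 genes reached 0.2% of UMIs in 2581 of 2751 (93.8%) in ASF-KO, 49 of 499 (9.82%) in SC35-KO and 81 of 179 (45.3%) in WT. When each gated cell was thinned to 2000 UMIs and shallower cells were left out (29 members in ASF-KO, 1 in SC35-KO, 13 in WT), the shares were 0.899% in ASF-KO (0.627 to 1.25%), 0.137% in SC35-KO and 3.998% in WT (3.46 to 4.60%). The order of the 3 libraries was the same with and without thinning, but the cells were partly others. Of the cells past the threshold after thinning, 21 of 35 in ASF-KO, 6 of 7 in SC35-KO and 118 of 190 in WT were members at full depth.

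**Figure D2:**
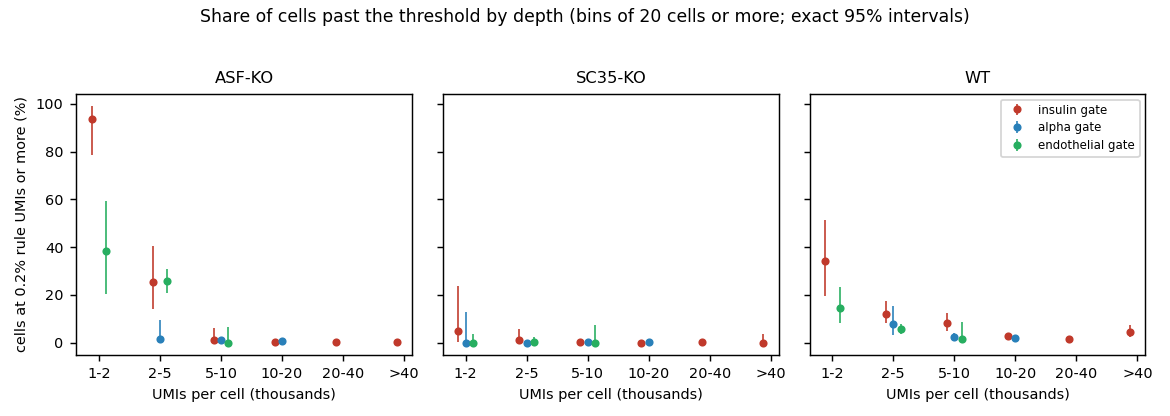
Percent of cells in which the 6 rule genes reach 0.2% of UMIs (vertical axis), by bin of UMIs per cell (horizontal axis), with exact binomial 95% intervals, for the insulin, alpha and endothelial gates in each library, in bins of 20 cells or more. In ASF-KO gated cells the share is 93.5% in the shallowest bin and below 1% above 10000 UMIs.

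The same enzyme RNA reached the threshold in cells of other classes, which do not make digestive enzymes. Classes were set by marker counts: alpha and delta cells by glucagon or somatostatin RNA, endothelial and immune cells by their own markers at low insulin. The share at or above 0.2% among endothelial cells was 22.4% in ASF-KO, 0.262% in SC35-KO and 6.93% in WT, at median depths of 3485, 2690 and 3060 UMIs. Among alpha cells it was 0.939%, 0.108% and 2.55%, at median depths of 9308, 8079 and 10154 UMIs. Thinned to 1000 UMIs, the shares were 3.67% of gated cells, 10.1% of alpha cells and 38.2% of endothelial cells in ASF-KO. They were 0.214%, 0.467% and 1.83% in SC35-KO, and 6.51%, 7.06% and 23.9% in WT. At 1000 UMIs the threshold of 0.2% is only a few UMIs, and cells below it at full depth can reach it. In separate draws it was reached by 78 cells of the rest in ASF-KO, 9 in SC35-KO and 184 in WT, against 50, 6 and 125 members. Thinned to equal depth, the share of gated cells was thus below that of endothelial cells in each library and close to that of alpha cells in WT. Insulin makes up much of a gated cell's UMIs at any depth, and whether the gated cells express these genes was not tested. Among the shallowest barcodes without thinning the order was the other way. Between 1000 and 2000 UMIs, 93.5% of gated cells reached 0.2% in ASF-KO and 34.2% in WT, against 38.5% and 14.6% of endothelial cells. Between 2000 and 5000 UMIs, 25.5% of gated cells reached it in ASF-KO and 12.1% in WT, against 25.7% and 5.58% of endothelial cells. The pooled level of the 6 genes was 1.42% of UMIs in ASF-KO members, 1.41% in SC35-KO members and 0.591% in WT members. It was 0.138%, 0.0136% and 0.0834% in endothelial cells and 0.0175%, 0.00241% and 0.0231% in the rest.

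A few members held much of the enzyme RNA. In ASF-KO 1 member of 62843 UMIs, with 6.02% of its UMIs from the 6 genes and 51.2% from insulin, held 3784 of the 5132 rule UMIs of all members (73.7%). In SC35-KO 1 member of 28842 UMIs held 997 of 1545 (64.5%), and in WT the highest held 2271 of 15939 (14.2%). Members above 2% of rule UMIs numbered 1 in ASF-KO, 3 in SC35-KO and 3 in WT, and together held 73.7%, 80.1% and 33.6% of the rule UMIs. Scrublet marked none of these 7 cells. They are described here, and sums are given below with and without them where this matters. All 6 genes were detected in 9 of 52 members in ASF-KO, 6 of 7 in SC35-KO and 113 of 147 in WT.

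The 6 genes differed in level between members and rest as the rule requires. Try4 gave 1761 CPM in ASF-KO members, 1156 CPM in SC35-KO members and 1292 CPM in WT members, against 24.6, 2.77 and 40.6 CPM in the rest. Pnlip gave 2962, 2193 and 726 CPM in the members, against 32.2, 3.53 and 30.4 CPM in the rest. Ctrb1 gave 4231, 3330 and 1225 CPM in the members, against 49.6, 6.5 and 62.3 CPM in the rest. The rest of SC35-KO had the lowest level of the 3 libraries for each of these genes.

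The mix of the 6 genes, which the rule leaves free, differed within WT. Try4 took 12.4% of the rule UMIs in ASF-KO members, 8.22% in SC35-KO members and 21.9% in WT members, against 14.0%, 11.5% and 17.6% in the rest. Ctrb1 took 29.9%, 23.7% and 20.7% in the members, against 28.3%, 27% and 27% in the rest. The 9 acinar-like cells of WT, in which the 6 genes gave at least 20% of UMIs, had 10.1% Try4 and 29.3% Ctrb1. WT members thus had more Try4 and less Ctrb1 among their enzyme RNA than the WT rest and than the acinar-like cells.

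**Figure D3:**
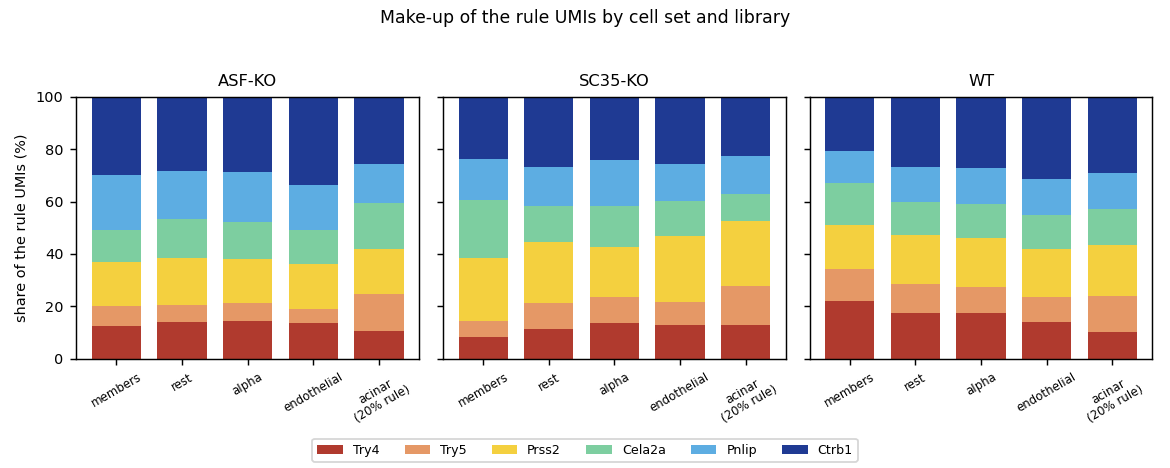
Percent of rule UMIs from each of the 6 genes (stacked bars, vertical axis) in members, rest, alpha, endothelial and acinar-like cells of each library. Try4 takes 21.9% in WT members, against 17.6% in the WT rest and 10.1% in WT acinar-like cells.

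Ordered by the share of rule UMIs, the WT gate changed its mix well below the member threshold. Try4 took 12.01% of rule UMIs in cells below 0.01% (1313 cells), 14.8% between 0.02% and 0.05% (1241 cells) and 23.9% between 0.05% and 0.1% (286 cells). It stayed between 23.9% and 26.1% up to 0.5%, and was 17.6% and 19.8% in the 28 and 13 members above 0.5%. Ctrb1 ran the other way, with 39.1% in the lowest bin, 31.5% between 0.02% and 0.05%, 17.5% in the next and 13.3% between 0.3% and 0.5%. It was 28.6% and 24.4% in the members above 0.5%. In ASF-KO no such step was seen: Try4 stayed between 10.6% and 14.5% and Ctrb1 between 26.8% and 30.2% over all bins.

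Malat1, a nuclear long noncoding RNA, changed at the same share in WT. It gave 13213 CPM in the lowest bin, 11826 CPM between 0.02% and 0.05%, 7521 CPM between 0.05% and 0.1%, and 7535 to 7921 CPM in all bins above. Slc2a2, the glucose transporter GLUT2 of beta cells, gave 387, 357 and 299 CPM in the same 3 bins and between 211 and 327 CPM above, a spread wider than its change at 0.05%. With cells under 5000 UMIs left out, Malat1 between 0.05% and 0.1% was 7508 CPM in 240 cells. In WT alpha cells the mix changed at a higher share, with 13.1% Try4 between 0.05% and 0.1% (180 cells), 19.7% between 0.1% and 0.2% (36 cells) and 27.1% to 28.02% in the bins above. Malat1 in these alpha bins was 24292, 22616 and 16648 to 22934 CPM. Malat1 and Slc2a2 were chosen after their values were seen.

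**Figure D4:**
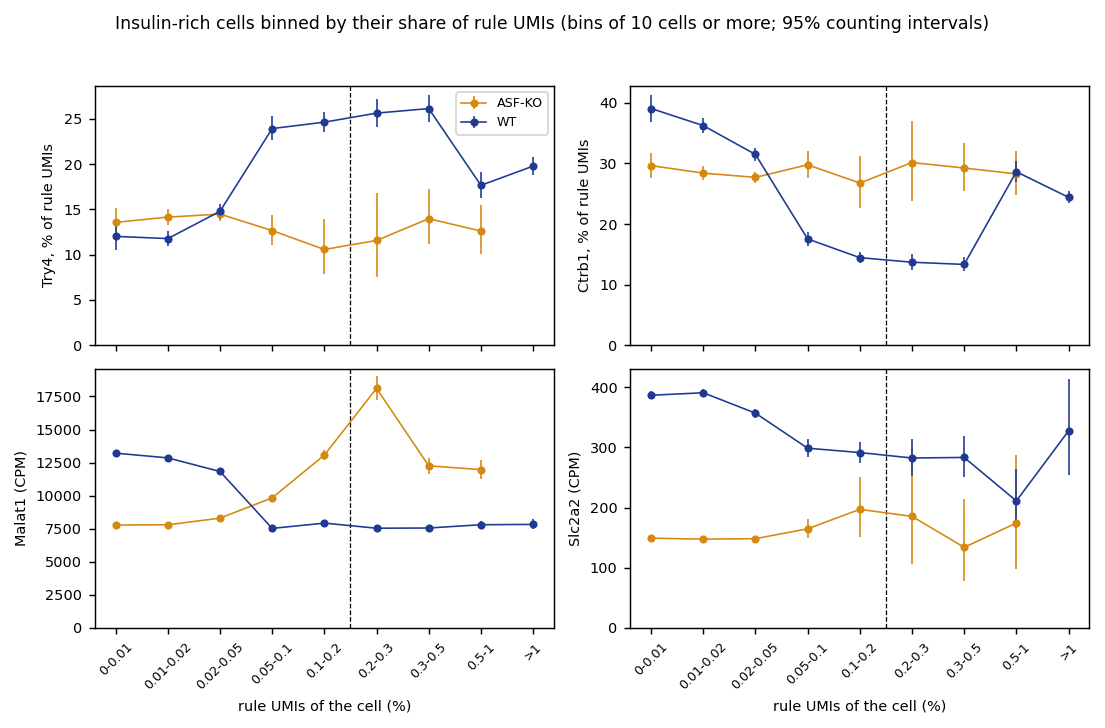
Share of rule UMIs from Try4 and Ctrb1 (percent) and level of Malat1 and Slc2a2 (CPM) by bin of the rule share of a gated cell (horizontal axis, percent of UMIs), in ASF-KO and WT. In WT Try4, Ctrb1 and Malat1 step at 0.05%, with Malat1 at 11826 CPM in the bin below and 7521 CPM in the bin above.

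The same mix varied from cell to cell in WT, in members and in other cells. Of the 100 WT members with at least 30 rule UMIs, 58 had less than 15% Ctrb1 among them, 12 had 15 to 20% and 30 had at least 20%. Among 116 cells of the WT rest with as many rule UMIs, 70 had less than 15%, 26 had 15 to 20% and 20 had at least 20%. Among 119 WT cells outside the gate that reached 0.2% of rule UMIs but not 20%, the numbers were 62, 20 and 37. In ASF-KO all 10 such members had at least 20%, and in SC35-KO 5 of 6 did. The 58 WT members low in Ctrb1 had a median of 22439 UMIs and a rule share of 0.285%, and the 30 high in Ctrb1 had 15807.5 UMIs and 0.833%. Enzymes outside the rule differed between these subsets too. Clps, the colipase that anchors pancreatic lipase on fat droplets, gave 14.6 UMIs per 100 rule UMIs in the members low in Ctrb1, against 5.56 in those high in it. Ctrl, a chymotrypsin-like protease, gave 4.14 against 7.09, and Cel, the bile salt-dependent lipase, 1.28 against 2.73. Cpb1, a carboxypeptidase, gave 3.92 against 6.19. The 3 WT members above 2% of rule UMIs all lay in the subset high in Ctrb1. In the 27 others Clps was at 7.83, Ctrl at 8.48, Cel at 3.84 and Cpb1 at 5.61 UMIs per 100 rule UMIs. The subsets were made after the values were seen.

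Exocrine genes outside the rule were higher with the rule genes. The members were chosen on transcripts of the same cells, so these values describe the members and carry no test. Of 32 further exocrine genes in the files, 19 passed the filter of 10 CPM and 20 UMIs in ASF-KO and 19 in WT, several only through the members, and each of these was at least 1.5-fold higher in members relative to the median gene. Of all genes measured, 10.3% were so in ASF-KO and 2.4% in WT. Summed over the 32 genes, the level was 21092 CPM in ASF-KO members, against 182 CPM in the rest, a ratio of 116 (113 to 119). In SC35-KO it was 13367 CPM in members, against 26.8 CPM in the rest. In WT it was 4313 CPM in members, against 240 CPM in the rest, a ratio of 18.0 (17.6 to 18.4). Without the cells above 2% the sums were 3673 CPM in ASF-KO (a ratio of 20.2), 3866 CPM in the 4 other SC35-KO members (144) and 3235 CPM in WT (13.5).

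The genes ranked highest in both ASF-KO and WT were pancreatic enzymes, their cofactors and zymogen granule proteins. Among proteases, Ctrl gave 1005 CPM in ASF-KO members, 1310 CPM in SC35-KO members and 347 CPM in WT members, against 14.6, 1.68 and 13.7 CPM in the rest. Cpa1, a carboxypeptidase, gave 2145, 1447 and 610 CPM in the members, against 25.2, 2.78 and 29.3 CPM in the rest. Cela3b, an elastase, gave 2208, 1429 and 653 CPM, against 23.3, 3.44 and 32.7 CPM. Cela1 and Cpb1, also proteases, were 136 and 107 times the rest in ASF-KO and 17.1 and 17.3 times in WT. Without the members above 2%, Cela1 was at 21.8 times and Cpb1 at 24.2 times the rest in ASF-KO, and at 13.0 and 10.4 times in WT. Without them Ctrl was at 23.7, Cpa1 at 17.9 and Cela3b at 20.2 times the rest in ASF-KO, so 1 cell gave most of the excess over WT in these ratios.

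Lipid enzymes and granule proteins showed the same pattern. Cel gave 718, 410 and 131 CPM in the members of ASF-KO, SC35-KO and WT, against 8.76, 0.924 and 6.12 CPM in the rest. Clps gave 4606, 1338 and 540 CPM in the members, against 17.4, 2.12 and 34.9 CPM in the rest. Zg16, a lectin of the zymogen granule, gave 999, 710 and 245 CPM, against 9.12, 1.19 and 10.3 CPM. Sycn, the granule protein syncollin, was 110 times the rest in ASF-KO and 16.1 times in WT, and Pla2g1b, the pancreatic phospholipase, 118 and 19.2 times. Reg1, a secreted acinar protein, gave 353, 755 and 226 CPM in members, against 4.12, 1.62 and 12.3 CPM in the rest. Spink1, the trypsin inhibitor that guards against early activation, was 107 times the rest in ASF-KO and 18.8 times in WT. Without the 1 ASF-KO member above 2%, Clps fell to 341 CPM and Cel to 140 CPM in ASF-KO members. Sycn was then at 19.1, Pla2g1b at 20.8, Spink1 at 25.8, Zg16 at 25.3 and Reg1 at 24.3 times the rest.

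**Figure D5:**
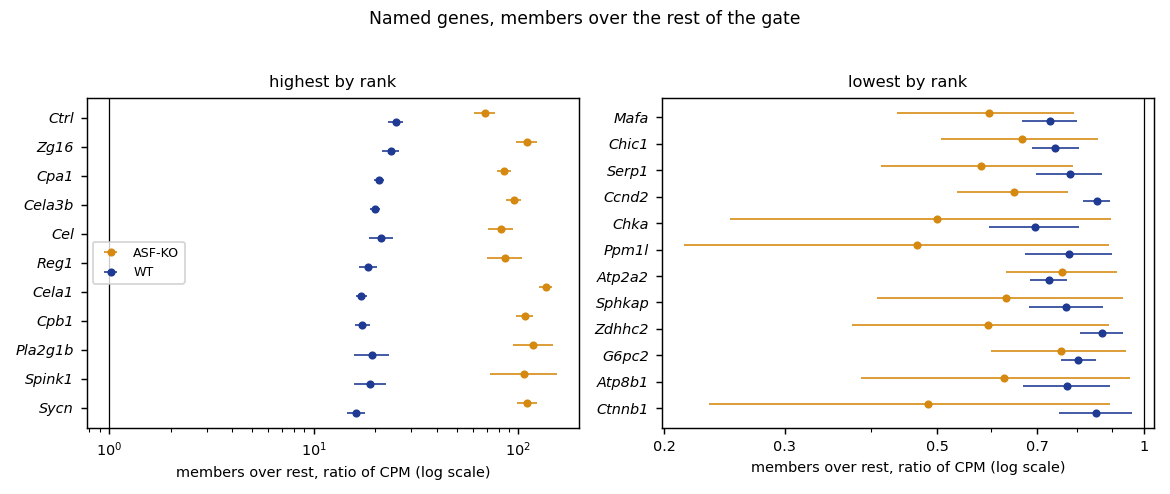
Ratio of members to rest (horizontal axis, log scale) with 95% counting intervals for the genes named by rank, in ASF-KO and WT. The exocrine genes drawn lie between 68.6 and 136 in ASF-KO and between 16.1 and 25.2 in WT, and the lowest genes lie below 1 in both. Without the 1 ASF-KO member above 2% the same exocrine genes lie between 16.01 and 25.8 in ASF-KO.

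Single members held few or many of these enzymes. The number of the 32 genes detected in a cell had a median of 5 in ASF-KO members (0 to 26), 16 in SC35-KO members (6 to 25) and 12 in WT members (2 to 24), against medians of 4, 0 and 3 in the rest. The ASF-KO median thus rested on cells of far fewer UMIs than their rest.

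Ptf1a, Rbpjl, Nr5a2 and Gata4, transcription factors of acinar cells, were at or near 0. Ptf1a, which drives acinar fate, gave 1 UMI in ASF-KO members, 0 in SC35-KO members and 1 in WT members. Rbpjl, its acinar partner, gave 2, 0 and 0 UMIs, and Nr5a2 gave 0, 0 and 2 UMIs. Gata4 gave 0 UMIs in all members. Bhlha15, which encodes Mist1 and is shared by secretory cells, gave 19.3 CPM in ASF-KO members and 8.15 CPM in WT members, against 17.3 and 9.23 CPM in the rest. These genes are counted low in any cell, so 0 UMIs does not show that a factor was absent at this depth. The full list of 8 acinar factors summed to 146 CPM in ASF-KO members, 173 CPM in SC35-KO members and 133 CPM in WT members. In the rest it summed to 132, 130 and 158 CPM, and listed genes not named here held most of the members' UMIs.

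The label of beta cells was checked against beta genes. Of 19 measured genes of the beta identity list, none was 1.5-fold higher or lower in WT members relative to the median gene, and 1 was higher and 1 lower in ASF-KO members. Over all genes 10.3% were higher and 15.2% lower in ASF-KO, and 2.4% and 2.26% in WT. The list median was -0.10 on the log2 scale in ASF-KO and -0.08 in WT. Iapp, co-secreted with insulin, was at 0.829 times the rest in ASF-KO, 1.08 times in SC35-KO and 1.12 times in WT. In these sums most beta genes thus lay near the level of the rest. The sums weigh deep members more, and 41 of the 52 ASF-KO members had fewer than 5000 UMIs. The median ASF-KO member had 17360 CPM of Iapp, against 40918 CPM in the rest, while the WT medians were 48320 and 44304 CPM. For Iapp the sums thus do not describe the typical ASF-KO member. Mafa was detected in 17 of 52 ASF-KO members. At their median of 1947 UMIs a gene of its level is missed in many cells, so this count does not show a lower level.

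The genes ranked lowest in both ASF-KO and WT members included regulators and secretory genes of beta cells. Mafa, a transcription factor of mature beta cells, gave 130 CPM in ASF-KO members, 109 CPM in SC35-KO members and 173 CPM in WT members, against 218, 149 and 237 CPM in the rest. G6pc2, a glucose-6-phosphatase of islets, was at 0.757 times the rest in ASF-KO and 0.803 times in WT. Atp2a2, the calcium pump of the endoplasmic reticulum, was at 0.762 and 0.727 times, and Serp1, which protects newly made proteins there, at 0.579 and 0.780 times. Ccnd2, a cyclin of beta cell division, was at 0.647 and 0.854 times. Chka, a choline kinase, was at 0.5002 and 0.694 times, and Ctnnb1, the beta-catenin gene, at 0.485 and 0.853 times, on 11 and 10 UMIs in ASF-KO members. In the 7 SC35-KO members Ccnd2 was at 1.495 times (1.16 to 1.90) and Atp2a2 at 1.82 times (1.41 to 2.31) the rest, the opposite direction.

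Most genes of secretion and metabolism lay within 1.5-fold of the rest, relative to the median gene. Of the unfolded protein response list, 3 of 20 measured genes were lower in ASF-KO members (median -0.33 on the log2 scale) and 0 of 19 in WT members (median -0.04), where 15.2% and 2.26% of all genes were lower, and none was higher in either. Of the list of insulin exocytosis, 2 of 20 were lower in ASF-KO and 1 of 19 in WT. The 22 cytosolic ribosomal protein genes had medians of 0.19 in ASF-KO and 0.36 in WT and none passed 1.5-fold, and the 24 nuclear genes of oxidative phosphorylation had medians of 0.09 and 0.31. None of the 12 SR protein genes measured passed 1.5-fold in either library. Counts at 2-fold over all genes were 136 higher (2.54%) and 331 lower (6.17%) of 5362 in ASF-KO, and 42 higher (0.621%) and 19 lower (0.281%) of 6760 in WT. In ASF-KO 29.1% of these calls were higher, against 18.7% when scaled without insulin, mitochondrial and rule genes and 13.8% with median-of-ratios factors. In WT 68.9% were higher, against 30.5% and 81.1% under these scalings. The scalings moved the median gene by -0.27 and -0.17 on the log2 scale in ASF-KO and by 0.02 and 0.07 in WT. At 50 CPM or more, 39 genes were 2-fold higher and 3 lower in ASF-KO.

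Summed RNA of other endocrine cells was higher in the members of ASF-KO and WT, while the gate holds each of 3 hormones under 2% of a cell's UMIs. Gcg, the glucagon gene, gave 6155 CPM in ASF-KO members, 1137 CPM in SC35-KO members and 1944 CPM in WT members, against 628, 964 and 820 CPM in the rest. Sst, the somatostatin gene, gave 2423, 246 and 845 CPM, against 280, 520 and 330 CPM. Pyy, a peptide of gamma and other islet cells that the gate did not use, gave 2719, 355 and 1662 CPM, against 679, 864 and 717 CPM. Rbp4, a retinol carrier abundant in delta cells, gave 119 CPM in ASF-KO members and 65.6 CPM in WT members, against 17.8 and 22.1 CPM in the rest. The median cell did not follow these sums for every gene in SC35-KO and WT. For Gcg it had 6775 CPM in ASF-KO members, 1095 CPM in SC35-KO members and 571 CPM in WT members, against 446, 891 and 656 CPM in the rest. For Sst it had 705, 267 and 146 CPM, against 64.7, 161 and 173 CPM, and for Pyy 1230, 292 and 376 CPM, against 85.3, 233 and 317 CPM. The median was thus higher for all 3 genes in ASF-KO members, whereas in WT a minority of members raised the sums of Gcg and Sst above those of the rest. Set against a rest weighted to the members' depth, the Gcg ratio was 3.59 in ASF-KO and 1.41 in WT, and that of Sst 5.72 and 1.83. In ASF-KO this weighting leans on very few cells of the rest, because 29 of 31 gated cells between 1000 and 2000 UMIs were members.

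Markers of non-endocrine cells differed from the rest in some lists. The summed endothelial markers gave 174 CPM in ASF-KO members, 63.7 CPM in SC35-KO members and 115 CPM in WT members, against 113, 72.5 and 105 CPM in the rest. Macrophage markers gave 46.9, 18.2 and 64.5 CPM, against 42.0, 59.5 and 58.3 CPM. Ductal markers gave 596, 419 and 465 CPM, against 349, 278 and 377 CPM. The ductal genes Krt19, Sox9 and Cftr had 0 UMIs in the members of ASF-KO and SC35-KO. The ductal list shares Tff2 with the exocrine genes outside the rule. Tff2 gave 73 of the 216 ductal UMIs in ASF-KO members, 19 of 46 in SC35-KO members and 125 of 1254 in WT members. In the rest it gave 150 of 38032, 40 of 25919 and 245 of 40314. The highest member held 86 of the ductal UMIs in ASF-KO, 20 in SC35-KO and 70 in WT. The ductal sums of ASF-KO and SC35-KO members thus lean on Tff2 and on 1 member each. Lymphocyte markers gave 16.6, 18.2 and 69.7 CPM, against 12.1, 17.3 and 99.3 CPM, on 6 UMIs in ASF-KO members and 2 in SC35-KO members. Stromal markers had 0 UMIs in ASF-KO and SC35-KO members and 64.1 CPM in WT members, against 1.25, 2.38 and 9.62 CPM in the rest, and 147 of their 173 UMIs in WT members (84.97%) came from 1 member. Their part in the results was not tested.

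Some RNAs that are abundant in every library differed with depth in ASF-KO. They were chosen after their values were seen. Lars2, a mitochondrial leucyl-tRNA synthetase, gave 1960 CPM in ASF-KO members and 333 CPM in WT members, against 443 and 437 CPM in the rest. Gm42418, which overlaps a ribosomal RNA locus on chromosome 17, gave 31301 and 6747 CPM in the members, against 8371 and 7821 CPM in the rest. Set against a rest weighted to the members' depth, both ratios were 1.09 in ASF-KO, and in members with at least 5000 UMIs they were 1.17 and 1.16. Malat1 gave 7598 CPM in WT members and 12258 CPM in the WT rest, a ratio of 0.620 (0.611 to 0.628), which was 0.680 against the depth-weighted rest and 0.621 in cells of at least 5000 UMIs. In ASF-KO the Malat1 ratio was 1.55, and it was 1.31 and 0.855 under the same settings. The depth-weighted ASF-KO ratios lean on very few shallow cells of the rest, because 29 of 31 gated cells between 1000 and 2000 UMIs were members.

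ASF-KO members were then set against WT members. Of 6263 genes measured, 171 were 2-fold higher (2.73%) and 1184 2-fold lower (18.9%). The rest of ASF-KO against the rest of WT had 38 higher (0.577%) and 577 lower (8.76%) of 6585. The sums held 362316 UMIs in ASF-KO members and 2697983 in WT members, so the UMI minimum for a measured gene was a higher CPM in ASF-KO. Genes of low level thus passed only through WT members and had few UMIs in ASF-KO members, which favours lower calls. Whether more genes were lower in members than in the rest was not tested. The median gene ratio was 0.808 for members and 0.737 for the rest. Several of the large differences between the members were also present between the rest. Mt1, a metallothionein that binds zinc and copper, gave 144 CPM in ASF-KO members and 6292 CPM in WT members, against 152 CPM in the ASF-KO rest and 5699 CPM in the WT rest. Mt2 had a ratio of 0.0184 in members and 0.0183 in the rest. Fkbp11, a folding enzyme of the secretory pathway, was at 7.04 times in members and 5.93 times in the rest. Nupr1, a stress-response gene, was at 0.294 and 0.337 times.

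Exocrine genes were higher in ASF-KO members than in WT members, and 1 ASF-KO cell carried most of this difference. All 19 exocrine genes outside the rule that were measured were at least 1.5-fold higher in ASF-KO members than in WT members relative to the median gene, where 20% of all genes were higher and 22.6% lower, and 0 of the 10 that could be measured in the rest were past 1.5-fold there (9.07% of all genes higher, 8.23% lower). Reg1, from another list, was lower in the ASF-KO rest, at 4.12 CPM, against 12.3 CPM in the WT rest. The ratios of Clps, Cela1, Cel and Sycn given here are of CPM and not relative to the median gene. That gene was at 0.808 times between all members and 0.737 times between the rest. Clps was at 8.53 times in ASF-KO members relative to WT members and at 0.499 times in the rest. With the members above 2% left out it was at 0.717 times. Cela1 was at 5.82 times with these members and 1.22 times (1.02 to 1.46) without them, Cel at 5.48 and 1.496 times, and Sycn at 5.48 and 1.24 times (0.926 to 1.62). Unfolded protein response genes were higher in ASF-KO in both sets, with 15 of 18 measured genes at least 1.5-fold higher relative to the median gene in members (20% of all genes were) and 15 of 20 in the rest (9.07%).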

How the data were processed

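The authors deposited counts of UMIs as whole numbers, for 32285 genes and every barcode of the 3 libraries, with no normalization and no barcode below 500 UMIs. Cell Ranger 5.0.0, STAR, Seurat and mm10 are named, with no role given, per the submitters' processing notes. Depth ranged from 148320213 to 154099078 UMIs per library. Groups were taken from the genotype labels and the sample title.

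The members, gene lists and settings were chosen with earlier results of these data known. Cells were filtered and gated as the report states. UMIs were summed over members and over the rest of the gate in each library and scaled to CPM, and the members' sums held 362316 UMIs in ASF-KO, 109899 in SC35-KO and 2697983 in WT. Genes with at least 10 CPM and 20 UMIs in 1 of the 2 sums counted as measured, in libraries of at least 50 members. Shares have Clopper-Pearson intervals, sums exact Poisson intervals and ratios the exact conditional binomial interval, all at 95%. UMIs of 1 cell are not independent samples of a condition, so these cover counting error only. The interval code was tested on simulated data. No test or p-value is given, because each group has 1 library.

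Named genes are the 12 highest and 12 lowest, outside the rule and gate genes, in the same direction in ASF-KO and WT, ranked by the interval bound nearest to 1, with at least 50 CPM and 20 UMIs in 1 sum of each. Mitochondrially encoded, sex-linked, ribosomal protein and unnamed genes were left out. For ASF-KO against WT members 10 each way were ranked. From each of the 30 gene lists the most abundant measured genes were also taken, and genes chosen after their values were seen are said to be so. Some genes that the rule takes are not reported here. Doublets were marked with Scrublet (319, 886 and 291 cells in ASF-KO, SC35-KO and WT) and left in, and their removal was an alternative. Other alternatives were the rule threshold, the depth and insulin minimums, thinning to 2000 UMIs, scaling by other totals, the CPM filter, a depth-weighted rest and, added later, leaving out members above 2%. Gene positions came from GENCODE M21 and upstream windows from RefSeq (GRCm38.p6). The work used scanpy 1.11.5 for Scrublet, scipy 1.17.1 for intervals, and numpy 2.4.6, pandas 2.3.3, matplotlib 3.10.9 and python 3.11.15.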

Additional observations from a re-analysis of the deposited data

How the results depend on the processing

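No paired analysis was possible because each group has 1 library, so no library could be left out. Of 110 main results under an alternative, 49 stayed within their interval or within 1.5 times. The share of members (1.33% in ASF-KO, 3.07% in WT) was 2.04% and 6.74% at a threshold of 0.1%, 0.332% and 0.856% at 0.5%, 0.286% and 2.38% in cells of at least 5000 UMIs, and 0.899% and 3.998% after thinning to 2000 UMIs. With insulin at 40% or more it was 0.624% in ASF-KO. The summed ratio of exocrine genes outside the rule (116 and 18.0) was 65.4 and 11.9 at 0.1%, 254 and 43.0 at 0.5%, 133 and 16.1 with insulin at 40% or more, 26.0 and 14.5 after thinning, 20.2 and 13.5 without members above 2%, and 103 and 18.9 with median-of-ratios factors. In ASF-KO it was 143 at 5000 UMIs or more and 96.3 when scaled without insulin, mitochondrial and rule genes. It stayed above 1 in every setting run.

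Genes 2-fold higher in ASF-KO members (136) numbered 81 at 0.1%, 245 at 0.5%, 89 with insulin at 40% or more, 1598 after thinning, 260 when scaled without insulin and the other genes, 83 with median-of-ratios factors, 39 at 50 CPM or more and 40 against the depth-weighted rest. Genes 2-fold lower (331) numbered 78 at 0.1%, 643 at 0.5%, 678 at 5000 UMIs or more, 578 with insulin at 40% or more, 1130 without insulin and the other genes, 519 with median-of-ratios factors and 3 at 50 CPM or more. Higher genes in WT (42) numbered 72 after thinning and 21 at 50 CPM or more. Lower genes in WT (19) numbered 5 at 0.1%, 312 at 0.5%, 30 with insulin at 40% or more, 548 after thinning, 123 without insulin and the other genes, 10 with median-of-ratios factors and 0 at 50 CPM or more. The causes of these differences were not tested. Lists past 1.5-fold in ASF-KO numbered 5, against 3, without insulin and the other genes.

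Between ASF-KO and WT members, 307 genes, against 171, were 2-fold higher without insulin and the other genes. Among members at 0.5% or more 39 were higher and 659, against 1184, lower. Thinned to 1000 UMIs, the share of cells at 0.2% in ASF-KO was 10.1% for alpha, 18.2% for delta and 38.2% for endothelial cells. It was 0.467%, 0.981% and 1.83% in SC35-KO and 7.06%, 10.5% and 23.9% in WT, with 22.9% for WT immune cells. Of single genes, 341 values stayed within their interval, 182 left it in the same direction and 5 changed direction. In ASF-KO Chic1, Sphkap and G6pc2 were at 1.03, 1.03 and 1.04 times the rest at 0.1%, and Sphkap at 1.21 times after thinning. In WT Ctnnb1 was at 1.11 times at 0.5%. Removing cells marked by Scrublet moved none of the main results outside these limits. The 7 SC35-KO members were too few for counts over genes.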
